A study of Rattus norvegicus with 15 samples.

Results

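The 10 circadian clock genes described here are Clock, Per1, Per2, Per3, Cry1, Cry2, Nr1d1, Nr1d2, Dbp and Bhlhe40, chosen by symbol, and all 10 were found among the 21969 genes of the deposited table. All 10 also passed the filter on low counts, which left 15860 genes for testing. The circadian clock is a transcriptional loop that runs in most cells, airway epithelium included. CLOCK pairs with BMAL1, the product of Arntl, and the pair activates genes through E-box sequences; among these are the Per and Cry genes, whose proteins return to the nucleus and repress the pair. The nuclear receptors REV-ERBα and REV-ERBβ, products of Nr1d1 and Nr1d2, repress Arntl and Clock, DBP carries the rhythm to output genes through D-box sequences, and BHLHE40 is a repressor that competes for E-boxes.

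The libraries came from epithelial cells of rat trachea grown at an air-liquid interface, a culture in which medium lies below the cells and air above them. Cells of the first group received 10% CSE together with 100 µM naringenin, a citrus flavanone, for 24 h, after naringenin alone for 4 h. Cells of the second group received 10% CSE for 24 h, and control cells were left untreated, with 5 libraries in each of the 3 groups. The labels do not expand CSE, and they name no strain, sex, age, animal or culture, so a p-value here covers only the spread among these 15 libraries, which may be technical. No time of day or clock synchronisation was given and each group was sampled at 1 time, so no level given here can be placed on a daily cycle, and a shift in phase and a change in mean level cannot be told apart. The labels give no group with naringenin alone.

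Promoter sequences were taken from RefSeq (build GRCr8), which held 250 bases before and 50 after the start of 9 of the 10 genes; Cry1 had no entry, and Clock and Nr1d1 had 2 starts each, giving 11 windows. The 250 bases before the start are shown for the first start of Clock, the gene that was higher with CSE, for Per2 and Bhlhe40, which were lower, and for Nr1d1, to show where the loop's own binding sequences lie before 3 of these genes and that none of those searched was matched before Clock. Capitals mark matches to the E-box CACGTG, the E-prime box CACGTT or its reverse complement, and the D-box TTANGTAA.
Clock, chr14:32262500-32262749, plus strand: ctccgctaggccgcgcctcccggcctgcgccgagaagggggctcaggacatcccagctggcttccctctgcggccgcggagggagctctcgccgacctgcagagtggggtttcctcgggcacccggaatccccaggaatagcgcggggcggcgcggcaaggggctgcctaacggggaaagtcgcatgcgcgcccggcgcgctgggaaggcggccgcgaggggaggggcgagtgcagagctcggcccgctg
Per2, chr9:99496994-99497243, minus strand: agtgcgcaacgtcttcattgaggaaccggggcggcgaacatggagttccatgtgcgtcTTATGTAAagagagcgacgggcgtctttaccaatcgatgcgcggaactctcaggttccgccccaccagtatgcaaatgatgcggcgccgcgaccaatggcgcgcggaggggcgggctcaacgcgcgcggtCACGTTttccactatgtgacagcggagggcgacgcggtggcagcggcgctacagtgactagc
Nr1d1, chr10:84229455-84229704, minus strand: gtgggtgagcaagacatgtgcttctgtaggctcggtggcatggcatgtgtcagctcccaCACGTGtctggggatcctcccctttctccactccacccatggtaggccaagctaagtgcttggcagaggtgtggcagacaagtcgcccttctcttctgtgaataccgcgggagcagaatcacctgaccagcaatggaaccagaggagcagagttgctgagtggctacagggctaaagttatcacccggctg
Bhlhe40, chr4:143174200-143174449, plus strand: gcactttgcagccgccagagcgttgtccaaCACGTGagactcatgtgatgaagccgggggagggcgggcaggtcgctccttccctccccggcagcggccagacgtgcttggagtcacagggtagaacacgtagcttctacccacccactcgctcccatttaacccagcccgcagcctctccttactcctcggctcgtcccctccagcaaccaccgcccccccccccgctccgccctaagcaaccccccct

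Clock held no match. Per2 held an E-prime box at -62 to -57 and a D-box at -192 to -185, counted from the start. The E-box lay at -191 to -186 in Nr1d1 and at -220 to -215 in Bhlhe40. Over the windows of 300 bases and on both strands, the E-box was found in 2 of the 9 genes (Nr1d1 and Bhlhe40) and in 6.42% of all 33469 promoters. The E-prime box was found in 3 genes (Per2, Cry2 and the other start of Nr1d1) and in 4.83% of promoters, and the D-box in Per2 alone of the 9 and in 2.24%. The half-site AGGTCA, read by REV-ERB and ROR receptors, was found in Nr1d2 and in 16.2% of promoters. The core GCGTG, bound by the aryl hydrocarbon receptor, was found in Per3, Nr1d1 and Dbp and in 29.7%, and the antioxidant element TGACNNNGC in Per2 and in 12.1%, there at -69 to -61 and overlapping the E-prime box. The cAMP element TGACGTCA was found in none of the 9 and in 1.83% of promoters. A match shows only that the letters are present in this window.

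The libraries held 55.1 to 60.6 M counts, so that the floor of 3 counts corresponded to 0.0480 to 0.0557 CPM, far below every clock gene. CPM is a gene's count scaled to a common library size, here by TMM. Apart from treatment, the libraries were divided into 3 sets of unknown origin, by clustering after the group means were taken out. The number of sets was fixed at 3. Libraries were grouped for likeness in the same counts that were tested. Blocking on the sets, or testing within them, can therefore make p-values too small. A test within set 1 or 2 compares 2 libraries per group, with the spread taken from 1 fit of all 15 libraries. Set 1 held naringenin libraries 3 and 4, CSE libraries 1 and 3 and controls 1 and 2; set 2 held naringenin libraries 1 and 2, CSE libraries 2 and 4 and controls 3 and 4; set 3 held library 5 of each group. Set 3 has 1 library per group, and its values therefore carry no error of their own. Control library 5 stood apart for several clock genes, and results that rest on it are given with and without it. Markers of airway epithelium were high throughout, with summed levels of 2088 to 2852 CPM in naringenin libraries, 2208 to 2787 in CSE libraries and 3200 to 4138 in controls. Secretory markers summed to 7990 to 9444 CPM with naringenin, 7305 to 8178 with CSE and 10849 to 12573 in controls, and ciliated markers to 991 to 1211 with naringenin, 758 to 1096 with CSE and 926 to 1547 in controls. Basal markers summed to 155 to 476 with naringenin, 127 to 599 with CSE and 478 to 787 in controls, and stromal and smooth muscle markers to 33.0 to 221 with naringenin, 16.8 to 128 with CSE and 154 to 584 in controls. Leukocyte and endothelial markers each summed to at most 32.3 CPM in any library. Ptprc, Cd79a, Kdr and Dcn were below the filter, and Cd3e, Pecam1 and Cdh5 were not matched. The leukocyte sum was highest in library 5 of each group, at 32.3 CPM in control, 24.6 with CSE and 12.8 with naringenin. In controls 1 to 4 it was 3.90 to 6.78 CPM. Control library 5 also had the lowest ciliated (926) and stromal (154) sums of the controls and the highest basal sum (787). Its epithelial, secretory and endothelial sums lay within the range of controls 1 to 4. The part of these differences in the clock results was not tested. With CSE 3 of 4 epithelial, 4 of 5 ciliated, 1 of 4 secretory, 1 of 4 basal and 3 of 5 stromal markers tested were lower than in controls and none was higher. The epithelial, secretory and stromal sums lay lower in every CSE library than in any control, as Per2 did, and their part in the clock results was not tested. The secretory sum was mostly Pigr, the 1 secretory marker called lower (mean 10626.5 CPM in controls, against 636 for Scgb1a1). The stromal sum was mostly Tagln (mean 262 CPM in controls). In bulk RNA, fewer cells of a type and less RNA per cell cannot be told apart.

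**Figure D1:**
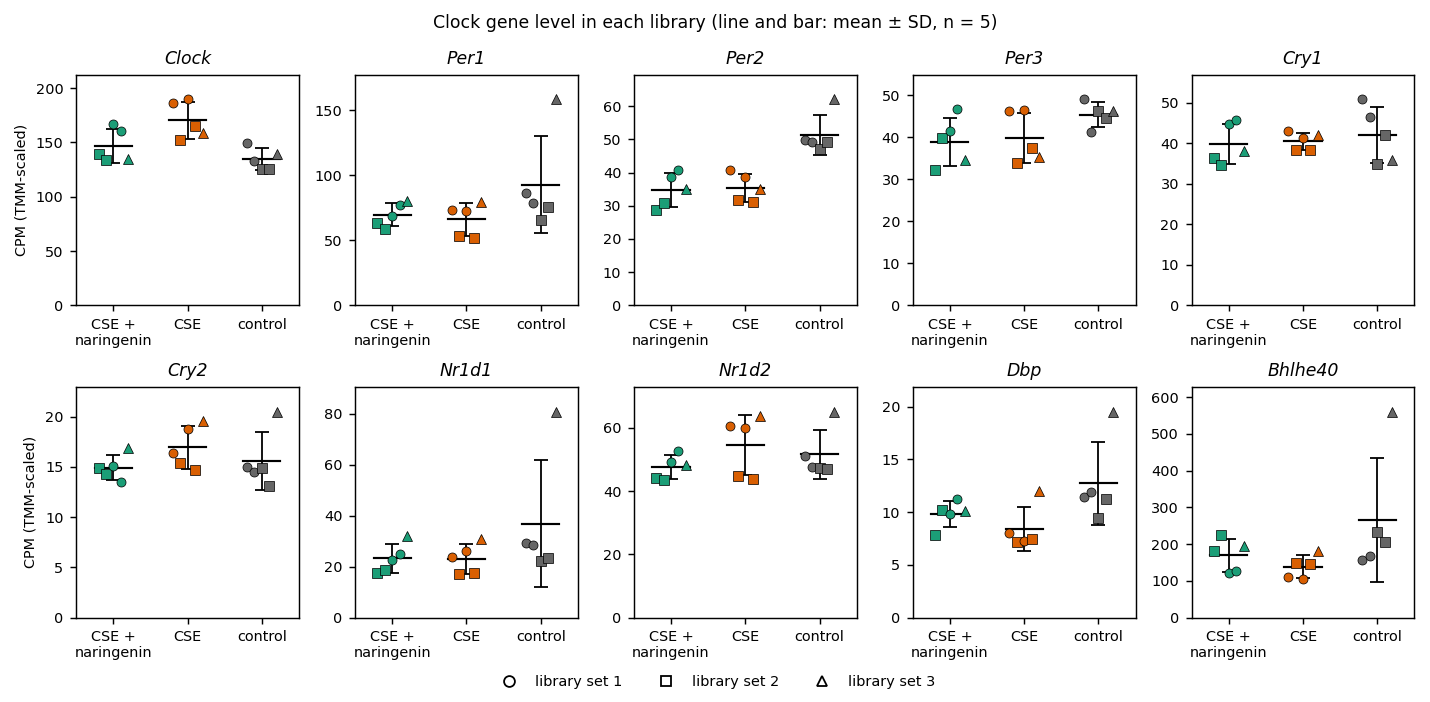
Level of each clock gene in every library, in TMM-scaled CPM on linear axes that start at 0, with CSE with naringenin, CSE and control from left to right; lines and bars show the mean and SD (n = 5) and the marker shape shows the library set. All 5 CSE libraries lie above all 5 controls for Clock and below them for Per2, and control library 5 is the highest point for Per1, Nr1d1, Dbp and Bhlhe40.

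With CSE, 4 of the 10 clock genes passed the test against control: Clock rose 1.27-fold, and Per2, Dbp and Bhlhe40 fell to 0.689, 0.659 and 0.524 of the control level. The test was edgeR's quasi-likelihood test with an adjusted p under 0.05, adjusted over all 15860 genes, of which 21.2% passed. Clock was 1 of 10 higher where 10.8% of all genes were, and the other 3 of 10 were lower where 10.4% of all genes were. The median log2 fold change of the 10 genes was -0.34, against -0.00255 over all genes tested. Groups did not overlap for 2 of the 10 genes, Clock and Per2, and for 14.6% of all genes.

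Clock encodes the DNA-binding partner of BMAL1 in the activating pair. Its level was 187, 152, 189.7, 165 and 158 CPM in CSE libraries 1 to 5, against 149, 133, 125, 125 and 139 CPM in controls 1 to 5. The lowest CSE library lay above the highest control. The log2 fold change was 0.34 ± 0.09 (SE; 95% interval 0.16 to 0.52; adjusted p = 0.0109, edgeR). Within library sets 1, 2 and 3 it was 0.42, 0.34 and 0.19, and all 29 alternative analyses also called Clock higher, with adjusted p between 7.8e-05 and 0.0319.

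Arntl, which encodes the partner of CLOCK and is not among the 10, was less clear. It had 35.9, 35.0, 36.1, 36.4 and 38.8 CPM in CSE libraries, against 28.9, 27.9, 27.2, 30.9 and 44.3 CPM in controls. Every CSE library lay above controls 1 to 4, and control library 5 lay above every CSE library. The difference was 0.19 ± 0.11 on the log2 scale, with an adjusted p = 0.229 in edgeR, and 0.34 with an adjusted p = 0.00119 without control library 5. It was 0.34 and 0.30 within sets 1 and 2, and -0.19 within set 3.

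The Per genes encode the PER repressors, which act with CRY to repress the activating pair. Per2 had 40.6, 31.6, 38.8, 31.1 and 34.9 CPM in CSE libraries, against 49.7, 49.2, 47.0, 49.1 and 62.1 CPM in controls, and the highest CSE library lay below the lowest control. Its log2 fold change was -0.54 ± 0.11 (95% interval -0.77 to -0.30; adjusted p = 0.00379, edgeR). It was -0.32, -0.61 and -0.83 within sets 1, 2 and 3, and Per2 was called lower in all 29 alternatives (adjusted p 5.1e-05 to 0.0161). Leaving out control library 5 gave -0.46 (adjusted p = 0.00758, edgeR).

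Per1, which also responds quickly to glucocorticoid and cAMP signals, had 73.5, 53.5, 72.8, 51.6 and 79.6 CPM in CSE libraries, against 86.1, 78.4, 65.5, 75.3 and 158 CPM in controls. The groups overlapped, and control library 5 held 2.07 times the mean of the other 4 controls. On the log2 scale the difference was -0.49 ± 0.21 (95% interval -0.93 to -0.04) and missed the threshold (adjusted p = 0.11, edgeR); without control library 5 it was -0.21 (adjusted p = 0.311). Within sets 1, 2 and 3 it was -0.17, -0.42 and -0.99, and with the library set as a block in edgeR Per1 was called lower (adjusted p = 0.00521), in a fit that called 39.9% of all genes. Per3 had 46.1, 33.8, 46.4, 37.3 and 35.4 CPM in CSE libraries, against 49.0, 41.2, 46.1, 44.5 and 46.1 CPM in controls. Its groups overlapped and its log2 fold change was -0.19 ± 0.11 (95% interval -0.42 to 0.05; adjusted p = 0.243, edgeR), with 0.04, -0.35 and -0.38 within sets 1, 2 and 3.

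The cryptochromes, which are the direct repressors of the activating pair, did not pass the test. Cry1 had 42.9, 38.3, 41.1, 38.3 and 41.9 CPM in CSE libraries, against 50.8, 46.5, 34.8, 41.9 and 35.7 CPM in controls. CSE libraries lay inside the control range, and the log2 fold change was -0.05 ± 0.11 (95% interval -0.28 to 0.18; adjusted p = 0.782, edgeR). Within sets 1, 2 and 3 it was -0.21, -0.00 and 0.23. Cry2 had 16.4, 15.3, 18.8, 14.7 and 19.5 CPM in CSE libraries, against 15.0, 14.5, 14.9, 13.1 and 20.5 CPM in controls, with a log2 fold change of 0.12 ± 0.12 (95% interval -0.13 to 0.38; adjusted p = 0.512, edgeR). Its groups overlapped, and the values within the 3 sets were 0.25, 0.10 and -0.07. Leaving out control library 5 gave 0.24 for Cry2 (adjusted p = 0.099, edgeR).

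Nr1d1 had 23.9, 16.9, 26.0, 17.4 and 30.8 CPM in CSE libraries, against 29.3, 28.5, 22.2, 23.4 and 80.8 CPM in controls. Control library 5 held 3.13 times the mean of the other 4 controls, and the remaining libraries of the 2 groups overlapped. CSE over control gave a log2 fold change of -0.68 ± 0.32 (95% interval -1.37 to 0.01; adjusted p = 0.149, edgeR), and it was -0.17 (adjusted p = 0.586) without control library 5. Within sets 1, 2 and 3 it was -0.21, -0.41 and -1.39, and the set block called Nr1d1 lower (adjusted p = 0.00741, edgeR), while counts summed per set and group did not (adjusted p = 0.0508). In the deposited annotation Nr1d1 overlaps Thra on the opposite strand by 1059 bases. The library protocol keeps strand, but no source used here says whether counting used it, so reads of the 2 genes in that stretch may not have been told apart. Nr1d2 had 60.4, 44.7, 59.9, 43.8 and 63.7 CPM in CSE libraries, against 51.0, 47.7, 47.4, 46.9 and 65.2 CPM in controls. CSE libraries 2 and 4, both of set 2, lay below every control, and the other 3 CSE libraries lay above controls 1 to 4. The log2 fold change was 0.08 ± 0.12 (95% interval -0.18 to 0.33; adjusted p = 0.689, edgeR), with 0.29, -0.09 and -0.03 within sets 1, 2 and 3. Leaving out control library 5 gave 0.18 (adjusted p = 0.281, edgeR). Within set 1 Nr1d2 was called higher (adjusted p = 0.00473, edgeR), where 4473 of all 15860 genes were called.

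Dbp, a direct E-box target whose protein activates output genes, had 7.99, 7.15, 7.26, 7.42 and 12.0 CPM in CSE libraries, against 11.4, 11.9, 9.43, 11.3 and 19.5 CPM in controls. CSE libraries 1 to 4 lay below every control and CSE library 5 did not. Its log2 fold change came to -0.60 ± 0.19 (95% interval -1.01 to -0.19; adjusted p = 0.0369, edgeR), and -0.61, -0.51 and -0.70 within sets 1, 2 and 3. The call was kept in 19 of 29 alternatives; without control library 5 the value was -0.40 with an adjusted p = 0.0809. It was called without the whole of set 3 (-0.57, adjusted p = 0.00524).

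Bhlhe40 had 112, 149, 105, 146 and 182 CPM in CSE libraries, against 157, 167, 233, 206 and 561 CPM in controls. The groups overlapped through CSE library 5, and control library 5 held 2.94 times the mean of the other 4 controls. On the log2 scale the difference was -0.93 ± 0.31 (95% interval -1.60 to -0.27; adjusted p = 0.0459, edgeR), and -0.58, -0.58 and -1.62 within sets 1, 2 and 3. Only 12 of 29 alternatives made this call, with adjusted p up to 0.127. Without control library 5 the value was -0.46 (adjusted p = 0.115), and without set 3 it was -0.59 (adjusted p = 0.0706).

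**Figure D2:**
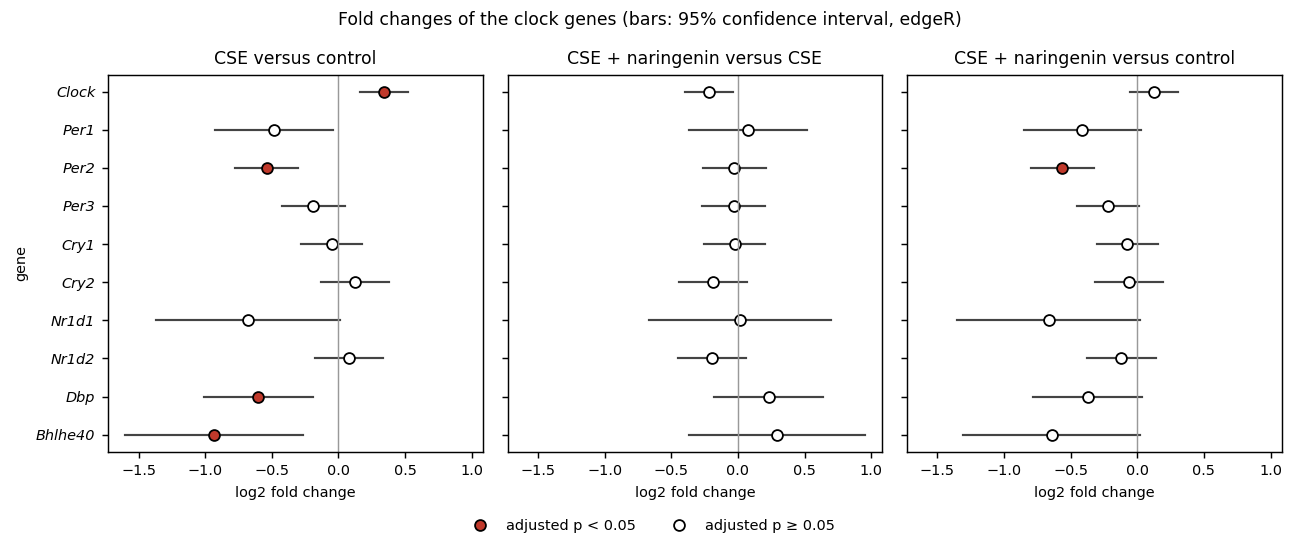
Log2 fold change of each clock gene in the 3 comparisons, with 95% confidence intervals from edgeR; filled points had an adjusted p under 0.05. Clock lies above 0 and Per2, Dbp and Bhlhe40 below 0 with CSE, no gene is filled for CSE with naringenin against CSE, and Per2 alone is filled for CSE with naringenin against control.

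Without control library 5, 2 of the 10 genes were called with CSE, Clock higher and Per2 lower, where 22.2% of all genes were, and the median of the 10 was -0.18 on the log2 scale. With the library set as a block, 6 of the 10 were called, Clock higher and Per1, Per2, Nr1d1, Dbp and Bhlhe40 lower, where 39.9% of all genes were. On counts summed per set and group, with the same block, 5 were called, without Nr1d1, where 25.5% of all genes were. Clock, Per1, Per2, Nr1d1, Dbp and Bhlhe40 had the same sign in all 3 sets, and for Per1, Per2, Nr1d1, Dbp and Bhlhe40 the difference was furthest from 0 in set 3, which contains control library 5. Of the genes not called over all libraries, Per1 (adjusted p = 0.00467), Per3 (0.0421) and Nr1d1 (0.00388) were called lower within set 2 (edgeR). Nr1d2 was called higher within set 1. Of all 15860 genes, 4111 were called within set 2 and 4473 within set 1. Differences between the sets were not tested.

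**Figure D3:**
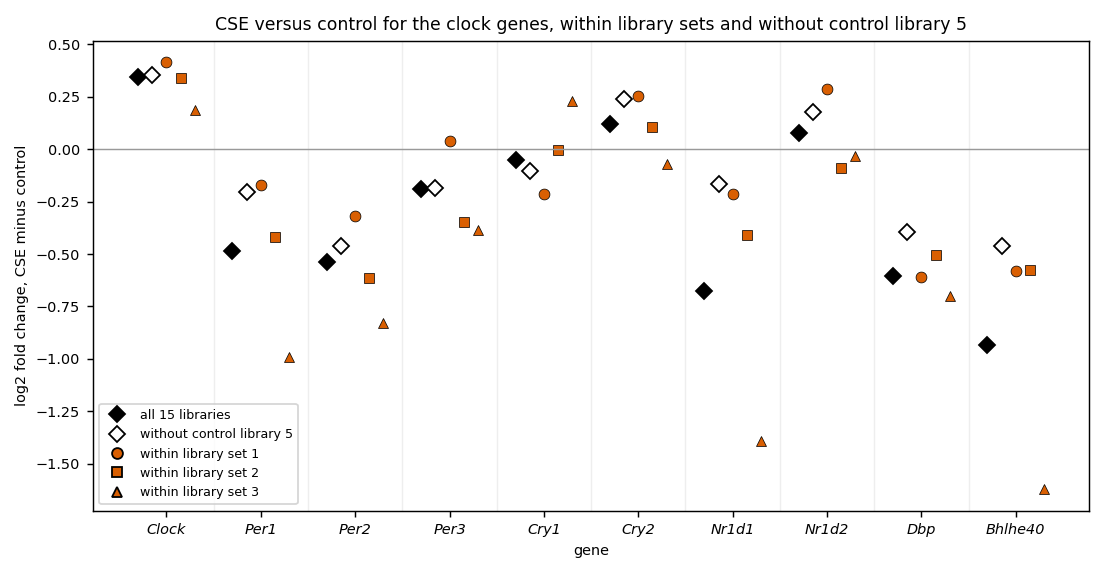
Log2 fold change of each clock gene between CSE and control over all 15 libraries, without control library 5 and within each library set. The 3 sets lie on the same side of 0 for Clock, Per1, Per2, Nr1d1, Dbp and Bhlhe40, and set 3 lies furthest below 0 for Nr1d1 (-1.39) and Bhlhe40 (-1.62).

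When naringenin was added to CSE, none of the 10 clock genes passed the test against CSE alone, where 0.908% of all genes did. DESeq2, which called 4.17% of the genes it tested, and limma-voom also called none of the 10, and groups overlapped for all 10, where they did not for 4.77% of all genes. By edgeR, 1 of the 10, Clock, had an unadjusted p under 0.05. The share of all genes under that threshold was not counted, here or for the lists below. Such counts therefore cannot be read as high or low. Clock had 139, 134, 167, 160.3 and 134 CPM in naringenin libraries 1 to 5, against 187, 152, 189.7, 165 and 158 CPM in CSE libraries. The groups overlapped, since naringenin libraries 3 and 4 lay above CSE library 2. Naringenin with CSE over CSE gave a log2 fold change of -0.21 ± 0.09 (95% interval -0.40 to -0.03; adjusted p = 0.281, edgeR). It was -0.20, -0.22 and -0.24 within sets 1, 2 and 3, and the set block called it lower (adjusted p = 0.0103, edgeR), while counts summed per set and group did not (adjusted p = 0.133). The set block called 12.7% of all genes in this comparison.

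Per2 had 28.6, 30.8, 38.6, 40.7 and 35.2 CPM in naringenin libraries, which covered nearly the same range as the CSE libraries (31.1 to 40.6 CPM). Its log2 fold change was -0.03 ± 0.11 with a 95% interval of -0.26 to 0.21 (adjusted p = 0.958, edgeR). That interval spans 0 and does not reach the size of the difference between CSE and control. Per1 had 63.2, 58.9, 68.6, 77.4 and 80.2 CPM in naringenin libraries and Per3 had 32.2, 39.7, 41.5, 46.6 and 34.6 CPM. Their log2 fold changes over CSE were 0.07 (95% interval -0.37 to 0.52) and -0.03 (-0.27 to 0.20).

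Cry1 had 36.4, 34.6, 44.7, 45.6 and 37.9 CPM in naringenin libraries and Cry2 had 14.9, 14.3, 15.1, 13.4 and 16.8 CPM, with log2 fold changes over CSE of -0.02 (95% interval -0.25 to 0.20) and -0.19 (-0.44 to 0.07). For Cry1, naringenin libraries 3 and 4 of set 1 were the 2 highest, as controls 1 and 2 of set 1 were among controls. Nr1d1 had 17.6, 18.7, 22.7, 25.1 and 32.1 CPM in naringenin libraries and Nr1d2 had 44.0, 43.5, 49.1, 52.8 and 48.3 CPM. Their log2 fold changes over CSE were 0.01 (95% interval -0.67 to 0.70) and -0.20 (-0.45 to 0.06). Within set 1 Nr1d2 was called lower than with CSE (-0.24, adjusted p = 0.0475, edgeR), where 666 of all 15860 genes were called.

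Dbp had 7.82, 10.2, 9.77, 11.2 and 10.1 CPM in naringenin libraries. Its log2 fold change over CSE was 0.23 (95% interval -0.18 to 0.64; adjusted p = 0.678, edgeR), and it was 0.46, 0.31 and -0.25 within sets 1, 2 and 3. Bhlhe40 had 182, 225, 122, 126 and 194 CPM in naringenin libraries, where libraries 3 and 4 of set 1 were the lowest. Over CSE the log2 fold change was 0.29 (95% interval -0.37 to 0.96; adjusted p = 0.762, edgeR). Within set 2 Bhlhe40 was called higher (0.46, adjusted p = 0.0268, edgeR), where 639 of all 15860 genes were called. For Dbp and Bhlhe40 the means lay between those of CSE and control, at 9.82 ± 1.24 CPM with naringenin, 8.37 ± 2.06 with CSE and 12.7 ± 3.92 in controls for Dbp (SD, n = 5 each). For Bhlhe40 they were 169.8 ± 44.6 CPM with naringenin, 139 ± 31.4 with CSE and 265 ± 168 in controls. With naringenin, neither gene passed the test over all libraries against CSE or against control.

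Against control, 1 of the 10 clock genes, Per2, passed the test in CSE with naringenin, and it was lower; 8.16% of all genes passed and 3.9% were lower. The highest naringenin library (40.7 CPM) lay below the lowest control (47.0 CPM), and Per2 was the only one of the 10 whose groups did not overlap, where 8.27% of all genes did not. The log2 fold change was -0.56 ± 0.11 (95% interval -0.80 to -0.33; adjusted p = 0.00667, edgeR), with -0.32, -0.69 and -0.82 within sets 1, 2 and 3, and all 29 alternatives made the same call. Leaving out control library 5 gave -0.49 (adjusted p = 0.0124, edgeR). Clock had 147 ± 15.4 CPM with naringenin and 134 ± 10.1 in controls (SD, n = 5 each), a log2 fold change of 0.13 ± 0.09 (adjusted p = 0.397, edgeR). It was -0.66 ± 0.32 for Nr1d1 (adjusted p = 0.227), -0.64 for Bhlhe40 (adjusted p = 0.228), -0.41 for Per1 (adjusted p = 0.246) and -0.37 for Dbp (adjusted p = 0.257), all by edgeR. In the same order, leaving out control library 5 gave -0.16, -0.17, -0.13 and -0.17 (adjusted p 0.686, 0.656, 0.604 and 0.557, edgeR). For Per3, Cry1, Cry2 and Nr1d2 the log2 fold change over all libraries was -0.22, -0.07, -0.06 and -0.12, with adjusted p of 0.241, 0.731, 0.798 and 0.602 (edgeR). Leaving out that library gave 0.05 for Cry2 and -0.02 for Nr1d2. With the library set as a block, 4 of the 10 were lower, Per1, Per2, Nr1d1 and Bhlhe40. That fit called 2197 of all 15860 genes lower, and 26.4% in either direction. On counts summed per set and group Per2 alone was called (adjusted p = 0.0116, edgeR), where 10.7% of all genes were, and the adjusted p was 0.101 for Per1, 0.0863 for Nr1d1 and 0.103 for Bhlhe40. Within set 1 Clock was called higher (adjusted p = 0.0494) and Nr1d1 (0.0378) and Bhlhe40 (0.021) lower, and within set 2 Nr1d1 was called lower (0.0209), all by edgeR. Of all 15860 genes, 2524 were called within set 1 and 2247 within set 2. This comparison shares its controls with CSE against control, so the values of Per2 in the 2 comparisons are not separate evidence.

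Per kilobase of transcript, on the authors' FPKM scale, Bhlhe40 was the most abundant of the 10 clock genes and Cry2 the least in all 3 groups. Bhlhe40 had 64.7 ± 16.9 FPKM with naringenin, 52.7 ± 10.8 with CSE and 96.3 ± 58.5 in controls, and Cry2 had 3.40 ± 0.282 with naringenin, 3.86 ± 0.459 with CSE and 3.41 ± 0.545 in controls (SD, n = 5 each). Clock had 14.1 ± 1.53 FPKM with naringenin, 16.4 ± 1.95 with CSE and 12.4 ± 0.844 in controls, and its mean was the second highest with CSE and the fifth highest in controls. By control means Per1 (19.8 ± 7.46), Cry1 (12.5 ± 2.13), Nr1d1 (12.5 ± 8.02) and Clock followed Bhlhe40. The SDs of Per1 and Nr1d1 were large through control library 5, at 32.9 and 26.7 FPKM. In controls 1 to 4 Per1 had 14.3 to 18.6 FPKM, Clock 11.7 to 13.8 and Nr1d1 7.70 to 10.0. Per1 thus lay above Clock in every control, and the mean of Nr1d1 stood above that of Clock only through control library 5. Next came Nr1d2 (9.74 ± 1.24), then Per2 (7.74 ± 0.738), Dbp (6.47 ± 1.84) and Per3 (6.11 ± 0.383), and Dbp lay within its SD of both Per2 and Per3. With CSE, Per3 (5.58 ± 0.955) and Per2 (5.55 ± 0.752) lay within their SDs of each other, and Dbp (4.43 ± 1.004) lay below both by more than any of the 3 SDs. With naringenin Per3 was at 5.45 ± 0.835, Per2 at 5.45 ± 0.835 and Dbp at 5.22 ± 0.701 FPKM.

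The groups accounted for different shares of each gene's variance in log2 CPM. For Per2 71.7% lay between groups and 17.5% between library sets, and for Clock the shares were 57.7% and 32.2%. For Cry1 3.01% lay between groups and 64.7% between sets, and for Nr1d1 21.0% and 63.9%. Nr1d2 and Cry2 also varied more with the set (58.8% and 57.9%) than with the group (14.9% and 17.0%). The sets were chosen from these same libraries, which by itself raises the set shares.

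Some clock genes moved together across the 15 libraries, which share treatment, library set and control library 5. Per1 and Nr1d1 followed each other most closely, with Pearson r = 0.98 (Spearman rho 0.96), 0.97 after the group means were taken out and 0.93 without control library 5. Per1 and Dbp had r = 0.86 (rho 0.79) and Nr1d1 and Dbp 0.84 (rho 0.71), which were 0.69 and 0.65 without control library 5. Per2 and Per3 had r = 0.76 (rho 0.74) and 0.78 without that library. Clock and Bhlhe40 ran opposite, with r = -0.66 (rho -0.84), -0.47 after the group means were taken out and -0.92 without control library 5. Cry1 and Cry2 had r = -0.19 (rho -0.15). Clock and Per2 had r = -0.24 over all libraries and 0.71 once the group means were taken out, so within a group the libraries with more Clock had more Per2, while the groups differed in opposite directions. These 45 pairs are descriptions and carry no test.

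**Figure D4:**
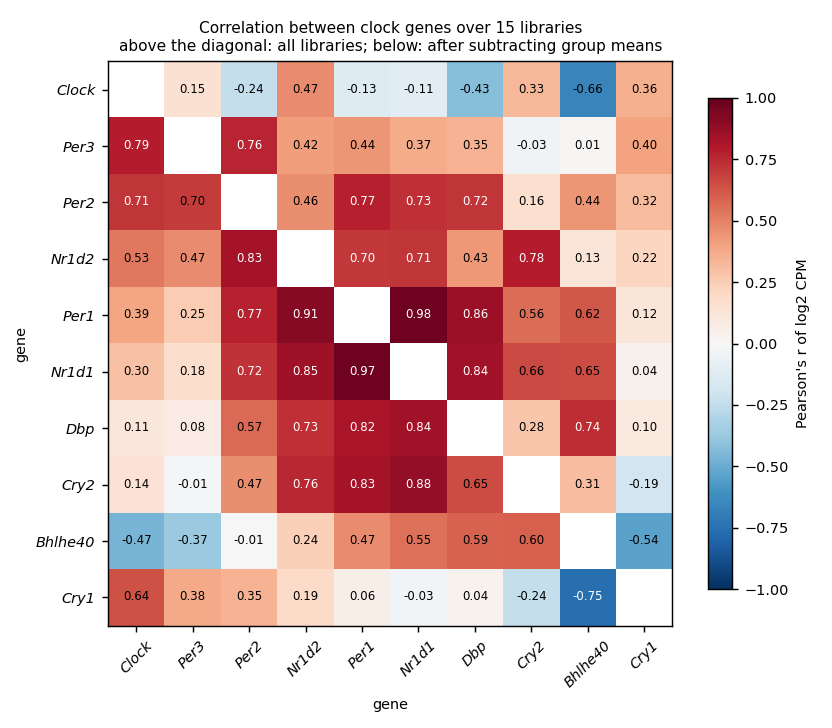
Pearson r of log2 CPM between each pair of clock genes over the 15 libraries, with all libraries above the diagonal and the values after the group means were taken out below it. Per1 and Nr1d1 are highest (0.98 and 0.97), and Clock with Per2 is at -0.24 above the diagonal and 0.71 below it.

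Over all 15860 genes tested, the 3 with the highest Pearson r of log2 CPM across the 15 libraries were taken as most like each clock gene, as a description. For Clock they were Myo18a (0.96), Bach1 (0.95) and Il17re (0.94), and for Per2 Gpx1, Susd6 and Stc1 (each 0.95). For Per1 they were Sat1 and Nr1d1 (each 0.98) and Bcl6 (0.96), and for Nr1d1 Per1 (0.98), Clk1 and Fam160b1 (each 0.97). For Per3 they were Brd1 (0.89), Phf2 (0.87) and Baz2b (0.86), the lowest of the 10 sets. For Cry1 they were Mettl22 and Nhlrc4 (each 0.92) and Tspan1 (0.91), and those for Cry2 included LOC108348130 (0.93) and Cdkn1a (0.92). For Nr1d2 they were Atp8b1 and Niban1 (each 0.94) and Lysmd3 (0.93), for Dbp Cited2 (0.93), Insig2 and RT1-CE7 (each 0.92), and for Bhlhe40 Btg2 and Ido1 (each 0.97) and Kctd5 (0.95). Leaving out control library 5 lowered the values for Dbp most, to 0.86, 0.85 and 0.83.

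Of 11 other core clock genes, 10 were tested and Rorb was not. With CSE none of the 10 rose, 1 fell and 9 did not pass, with a median log2 fold change of -0.38, or -0.17 without control library 5. The 1 that fell was Arntl2, a relative of Arntl, with 3.07 ± 0.686 CPM with CSE and 4.53 ± 0.972 in controls (log2 -0.56 ± 0.19, adjusted p = 0.0425, edgeR; 14 of 29 alternatives). With naringenin and CSE it had 2.71 ± 0.409 CPM, also lower than control (-0.74, adjusted p = 0.0255). Bhlhe41, the close relative of Bhlhe40, gave -0.77 ± 0.31 with CSE (adjusted p = 0.0934) and -1.06 with CSE and naringenin (adjusted p = 0.05001), both against control. Other values for CSE against control were -0.17 for Npas2, which can stand in for Clock, -0.55 for Rora, an activating receptor opposite REV-ERB, and -0.48 for Ciart, a repressor of the activating pair. Among the D-box factors they were -0.14 for Tef, -0.81 for Hlf and -0.28 for Nfil3, the repressor at D-boxes. None of these 6 passed (adjusted p 0.2066 to 0.5255). Control library 5 held 2.70 times the mean of the other 4 controls for Ciart, 2.55 for Rora, 2.39 for Bhlhe41 and 2.10 for Nfil3. It held 1.65 times that mean for Hlf, 1.07 for Tef and 1.01 for Npas2. Leaving it out gave 0.00633 for Nfil3. With the set block 6 of the 10 were lower, where 3274 of all 15860 genes were. When control library 5 was left out, 1 was higher, Arntl, and 1 lower, where 1739 genes were higher and 1776 lower. Between CSE with naringenin and CSE none of the 10 passed in edgeR, DESeq2 or limma-voom, and 1 had an unadjusted p under 0.05 in edgeR. Against control only Arntl2 passed in edgeR.

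Of 18 genes that modify clock proteins, 17 were tested, and with CSE none rose, 1 fell and 16 did not pass (median 0.000205). Usp2, a deubiquitinase of clock proteins, had 11.5, 13.0, 14.8, 12.0 and 10.7 CPM in CSE libraries, against 21.1, 20.6, 17.2, 18.6 and 14.6 CPM in controls. The groups touched only where CSE library 3 exceeded control library 5. The difference was -0.57 ± 0.15 on the log2 scale (adjusted p = 0.0125, edgeR), and all 29 alternatives called it.

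Of 9 rhythmic output genes, with CSE none rose, 1 fell and 8 did not pass (median -0.10, or 0.07 without control library 5). Noct, which encodes the rhythmically expressed enzyme nocturnin, had 3.36, 2.57, 2.85, 3.05 and 3.35 CPM in CSE libraries, against 3.92, 4.88, 4.99, 5.94 and 20.4 CPM in controls, with no overlap. Its log2 fold change was -1.40 ± 0.38 (adjusted p = 0.0166, edgeR) and -0.70 without control library 5, and 25 of 29 alternatives made the call, with limma-voom at an adjusted p of 0.0525. For CSE with naringenin over control it was -1.37 (adjusted p = 0.0374), and -0.68 without control library 5, and 17 of 29 alternatives made this call. No other output gene passed in that comparison. None of the 9 passed for CSE with naringenin over CSE by edgeR, where 4 had an unadjusted p under 0.05. DESeq2 called 1 of the 9, where it called 4.17% of the genes it tested, and limma-voom 0.

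Per1, Nr1d1, Dbp and Bhlhe40 are known to respond to hormone and cAMP signals as well as to the clock, so genes induced by those signals were counted too. Of 10 glucocorticoid-induced genes, 2 of which (Klf9 and Pdk4) are also in the list of output genes, none rose with CSE, 3 fell and 7 did not pass (median -0.58). The 3 were Cebpd (-0.98 ± 0.24, adjusted p = 0.0105), Zbtb16 (-0.79, adjusted p = 0.0311) and Tsc22d3 (-0.37, adjusted p = 0.0311), all by edgeR. They were called in 29, 21 and 19 of 29 alternatives. Without control library 5 Cebpd was at -0.62 and still passed, and Zbtb16 was at -0.48 and did not (adjusted p = 0.0632). Without control library 5 the list gave 2 higher and 2 lower with a median of -0.08. The summed level of this list was 520 to 637 CPM in naringenin libraries, 613 to 898 in CSE libraries and 620 to 1765 in controls, and library 5, of set 3, was the highest in each of the 3 groups. In control library 5 Dusp1 was at 6.41 times, Errfi1 at 5.44 times and Cebpd at 2.41 times the mean of the other 4 controls. Zbtb16, Sgk1, Angptl4 and Klf9 were at 1.36 to 2.20 times that mean. Fkbp5, Pdk4 and Tsc22d3 lay below it, at 0.943, 0.857 and 0.698 times. Dusp1 held 757 CPM in that library, against a mean of 118 CPM in the other 4 controls, and Errfi1 458 against 84.1 CPM. In the same library Nr1d1 was at 3.13 times and Per1 at 2.07 times the mean of the other 4 controls. Cry1 there was at 0.821 times, Per3 at 1.02 times and Clock at 1.05 times that mean. The part of these genes in the clock results was not tested. With naringenin none of the 10 passed in edgeR against CSE, where 3 had an unadjusted p under 0.05 and neither DESeq2 nor limma-voom called any. None passed in edgeR against control, where 6 had an unadjusted p under 0.05, DESeq2 called 3 and limma-voom 0. DESeq2 called 2064 of the 15519 genes it tested against control.

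Of 7 cAMP-induced genes, with CSE 1 rose, 3 fell and 3 did not pass (median -0.81, or -0.47 without control library 5). Their summed level was 247 CPM in control library 5 and 93.9 to 105 in controls 1 to 4. It was 65.6 to 83.0 CPM with CSE and 71.5 to 86.7 with naringenin, where library 5 was not the highest. In control library 5 Nr4a1 was at 3.58 and Sik1 at 3.42 times the mean of the other 4 controls. Nr4a3, Id1 and Nr4a2 were at 1.15 to 1.96 times, Pde4d at 0.974 and Crem at 0.841. The part of these genes in the clock results was not tested. Crem, whose short product represses cAMP-responsive genes, rose, with 9.31 ± 0.228 CPM with CSE and 6.78 ± 0.524 in controls (log2 0.46 ± 0.10, adjusted p = 0.00402, edgeR). With naringenin it was 6.58 ± 0.749 CPM, lower than with CSE alone (-0.50 ± 0.10, adjusted p = 0.0244, edgeR; 20 of 29 alternatives), and the naringenin and control libraries all lay below all CSE libraries. The orphan nuclear receptors Nr4a1, Nr4a2 and Nr4a3 fell with CSE (-1.02, -0.51 and -1.17; adjusted p = 0.0374, 0.00434 and 0.00467, edgeR). Without control library 5 the value for Nr4a1 was -0.42; 14 of 29 alternatives called it, with adjusted p up to 0.149. For CSE with naringenin against control only Nr4a3 of this list passed (-0.93, adjusted p = 0.035; 18 of 29 alternatives).

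**Figure D5:**
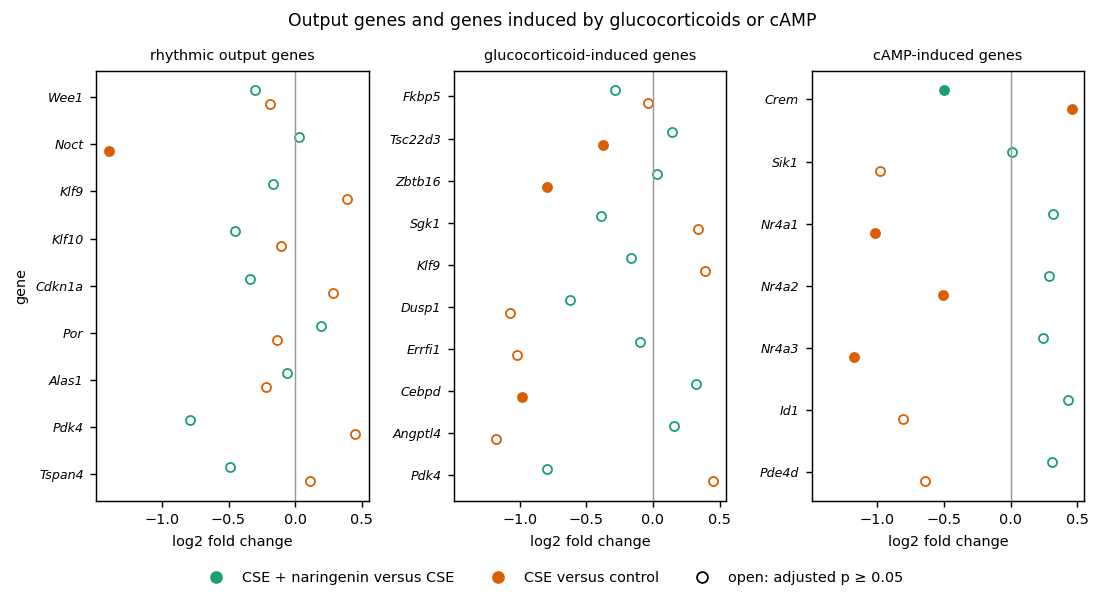
Log2 fold change of every tested gene among the rhythmic output, glucocorticoid-induced and cAMP-induced genes, for CSE with naringenin against CSE (green) and CSE against control (orange); filled points had an adjusted p under 0.05 in edgeR. With CSE all but Crem of the cAMP-induced genes lie below 0, and the rhythmic output genes lie on both sides of 0.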

How the data were processed

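Per the labels' protocols, poly(A)-selected, strand-keeping libraries with molecular identifiers in the adapters were sequenced as read pairs. Tools named in the submitters' processing notes, whose roles are not stated there, include StringTie 1.3.4d, HISAT2 2.0.4, cutadapt 1.9 and UMI-tools; genome build, annotation and handling of identifiers and strand are not given in the sources used here. The authors deposited whole-number counts per gene and FPKM values for 15 libraries. Counts as deposited were tested with edgeR 4.0.16 (R 4.3.3): TMM scaling, filterByExpr, a quasi-likelihood fit of group over all 15 libraries, and Benjamini-Hochberg adjustment over all genes tested, with calls at an adjusted p under 0.05. Confidence intervals (95%) came from the same fit and cover the spread among these libraries; the floor of 3 counts covers counting error only. Levels are CPM, or the authors' FPKM where genes are compared. Alternatives used other scalings, DESeq2 1.42.0, limma 3.58.1 on counts and on log2 FPKM with pseudocounts of 0.1 and 1, other filters, blocks and left-out libraries; 1 alternative, without library set 3, was chosen after seeing the data.

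The 10 genes and all lists were chosen with earlier results of these data known. Named were the 10 genes, further clock genes given whatever their result (Arntl, Npas2, Rora, Nfil3, Tef, Hlf, Bhlhe41 and Ciart), every called gene of the lists, and the 3 genes most like each of the 10. Some genes this rule names are not reported here. Libraries of 1 set were more alike within a group than libraries of different sets and may repeat 1 culture. They differed by more than counting noise and were kept as separate libraries, but repeat libraries of 1 culture could differ as much, so the number of cultures behind each n of 5 is not known.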

Additional observations from a re-analysis of the deposited data

Results flagged for a closer look

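Of the 30 combinations of clock gene and group, 8 held a library that stood apart. Its gap to its nearest neighbour exceeded Dixon's 95% critical value of 0.71 as a share of the group's range. Chance flags about 1 in 20 where combinations are independent, which these are not, since the genes share libraries. The share flagged over all genes was not counted, so no excess in clock genes can be read from this. In 7 of the 8 the library was control library 5, and in each it was the highest. Over the genes tested, that library also stood furthest from the other controls. The median chi-square per gene was 17.0 to 21.1 for pairs of controls that include it and 3.01 to 14.8 for other control pairs. Levels in control library 5 were 80.8 CPM for Nr1d1 (gap 0.879 of the range, with 22.2 to 29.3 CPM in the other controls) and 62.1 CPM for Per2 (0.821). It held 561 CPM of Bhlhe40 (0.811), 158 CPM of Per1 (0.778), 65.2 CPM of Nr1d2 (0.774), 19.5 CPM of Dbp (0.756) and 20.5 CPM of Cry2 (0.741). The same library was not outlying for Clock, Per3 and Cry1. The other case was CSE library 5 for Dbp, at 12.0 CPM, with the next CSE library at 7.99 CPM (gap 0.827). No CSE with naringenin library was outlying for any of the 10 genes.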

How the results depend on the processing

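Clock and Per2 were called between CSE and control, and Per2 between CSE with naringenin and control, in all 29 alternatives. Dbp and Bhlhe40 were called with CSE in 19 and 12. The 29 are not separate evidence. Leaving out a library of the group not compared left the fold change nearly as it was, as for Bhlhe40 with CSE (-0.93 without naringenin library 1). The set block and tests within sets can make p-values too small. The 3 library sets have no known origin, the labels name no cultures, and each group was sampled at 1 time. Depth did not limit the 10 genes.

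Genes called over the whole table numbered 3363 for CSE against control (1711 higher, 1652 lower), with 6325 under the set block and 2599 to 3515 when single libraries were left out. On log2 FPKM with limma the split was 2082 higher and 1106 lower (pseudocount 0.1) and 2383 and 1143 (pseudocount 1). For CSE with naringenin against CSE 144 genes were called. DESeq2 called 609, no filter 78, log2(FPKM + 0.1) 54, the set block 2015, tests within sets 1 and 2 666 and 639, and the analysis without set 3 253. Leaving out single libraries gave 36 (naringenin library 1) to 369 (control library 5). For CSE with naringenin against control 1294 were called (675 higher, 619 lower). DESeq2 called 2064, a fit of the 2 groups alone 807, the set block 4192, and tests within sets 1 and 2 2524 and 2247. Single libraries left out gave 764 to 1402. The split was 983 higher and 523 lower with upper-quartile scaling, and 914 and 386 or 1242 and 470 on log2 FPKM with pseudocounts 0.1 and 1.

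Directions turned only for values that were not called. For CSE against control, Per3 was 0.037 within set 1, Nfil3 0.065 within set 1 and Nr1d2 -0.091 within set 2. Cry1 was 0.018 and 0.016 with FPKM pseudocounts 0.1 and 1, and 0.0057 when counts were summed over each set's libraries. Leaving out single libraries gave Cry1 -0.11 to 0.028 and Nfil3 -0.40 to 0.00633. For CSE with naringenin against CSE, the values within set 1 were -0.00282 for Per1, 0.10 for Cry1 and -0.061 for Nr1d1, within set 2 0.014 for Per3, and without set 3 0.00351 for Cry1 and -0.0028 for Nr1d1. Single libraries left out gave Per1 -0.00371 to 0.15, Per2 -0.089 to 0.036, Per3 -0.11 to 0.029, Cry1 -0.077 to 0.022 and Nr1d1 -0.13 to 0.14. For CSE with naringenin against control, Cry2 was 0.00369 and 0.00157 with the FPKM pseudocounts and 0.061 within set 2, Nr1d2 was 0.046 within set 1, and single libraries left out gave Cry1 -0.13 to 0.00358 and Cry2 -0.12 to 0.050. The cause was not tested.

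Replicate numbers did not pair the libraries: 7 of 15 same-numbered pairs had a correlation of deviations over 0.1 (range -0.394 to 0.386), and 5 of 15 libraries correlated best with their own number. With the replicate number as a block, 3492, 300 and 1450 genes were called for CSE against control, CSE with naringenin against CSE and CSE with naringenin against control.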
